A study of Mus musculus with 4 samples.

Results

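Imprinted genes are expressed from 1 parental allele in the embryo or adult, and the choice of allele goes back to DNA methylation (DNAme) that the egg or the sperm brings in at an imprinted germline differentially methylated region (igDMR). A list of 48 imprinted mouse genes was looked up by gene name among the 25587 genes of the deposited table, and 45 of them are listed. Kcnq1ot1, Rian and Mirg are not listed and were not analysed here. Of the 45 genes, 36 belong to 17 control regions that gain DNAme in the oocyte (maternal class), and 6 belong to 3 control regions that gain it in the male germ line (paternal class). Zdbf2, Gpr1 and Sfmbt2 were put in neither class. The domain of Zdbf2 and Gpr1 has a maternally methylated region in the germ line and a paternally methylated one in the embryo. Sfmbt2 had no germline control region assigned.

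RNA was measured in oocytes of wild-type mice of the C57BL/6 background (C57BL/6Babr), with 1 library of pooled oocytes per stage and no agent or modified allele in any group. Non-growing oocytes (NGOs) came from 5 days postpartum (dpp) and measured 10 to 40 µm, and a first set of growing oocytes (GO1) came from 8 to 14 dpp and measured 25 to 70 µm. A second set of growing oocytes (GO2) came from 15 dpp and measured 50 to 70 µm, and fully grown oocytes (FGOs) came from 20 dpp and measured over 70 µm. Second strand marking with dUTP was used for NGOs and FGOs, and the ScriptSeq v2 kit for GO1 and GO2. Stage and protocol therefore cannot be told apart across the 2 kinds of library, and changes were taken between NGOs and FGOs and between GO1 and GO2. There is no second library of any stage, so no test was made, no p value is given, and every interval covers counting error only. The libraries were sequenced in read pairs, and the totals behind the deposited values exceed the number of read pairs in every library. The counts recovered on genes exceed it too. Fragments were therefore on average counted more than once, and the intervals are narrower than the true counting error.

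The igDMRs of the maternal class acquire DNAme while the oocyte grows, and transcription across them is known to take part in this step. Many of them lie inside a longer host gene that is transcribed in the oocyte, and at the same time cover the promoter of a second gene that is used in the embryo. The igDMRs of the paternal class stay unmethylated in the oocyte. In the embryo, the zinc finger protein ZFP57 binds the methylated form of the hexamer TGCCGC and protects the methylated allele. The deposited values do not separate alleles, so they measure the RNA of a gene in the oocyte and not its imprinting.

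Values are RPKM (reads per exon length and library total), which allows levels of different genes to be compared within a library. Unless stated otherwise, the 4 values of a gene are given in the order NGO, GO1, GO2 and FGO. Whole counts were recovered from them, and these sum to 61375816, 71573573, 132483179 and 68818564. A gene with 1 kb of exons and the floor of 3 counts has an RPKM of 0.0271, 0.0237, 0.0124 and 0.0251. All 10 oocyte markers, such as Zp3 and Gdf9, had an RPKM of at least 1 in all 4 libraries, with medians from 192 to 389. Markers of stroma and theca, ovarian cells other than the oocyte, summed to an RPKM of 5.61 in NGOs and to between 0.304 and 0.471 in the other libraries. At least 3 counts were found for 7, 7, 7 and 6 of the 8 stroma and theca markers. Lum was at 0 in GO1, GO2 and FGOs and Cyp17a1 in FGOs. Granulosa cell markers summed to 2.66, 2.46, 5.07 and 10.9, and those of endothelium to 3.37, 7.22, 11.1 and 12.4, with Cdh5 at most at 0.0408. Of 5 blood markers 3 are listed, and they summed to 0.921 in NGOs and to at most 0.0162 in the other libraries. Fewer cells of a type and less RNA per cell cannot be told apart in such pools.

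Most imprinted genes were detected in oocytes, and the genes of the paternal class stood lowest. At least 3 counts were found for 42 of the 45 genes in NGOs (93.3%, against 64.9% of all genes), 43 in GO1 (95.6% against 66.1%), 44 in GO2 (97.8% against 71%) and 41 in FGOs (91.1% against 65.4%). In all 4 libraries, 40 of 45 genes reached the floor, against 59.6% of all genes, and 44 of 45 did so in any library, against 74.6% of all genes. An RPKM of at least 1 was reached by 18, 20, 17 and 18 genes in NGOs, GO1, GO2 and FGOs (37.8% to 44.4%), against 38.4%, 36.6%, 37.4% and 38.5% of all genes. At this level the imprinted genes stood near the share of all genes. The 17 genes at an RPKM of at least 1 in all 4 libraries comprised 16 genes of the maternal class and Gpr1, and 33.6% of all genes met the same criterion.

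**Figure D1:**
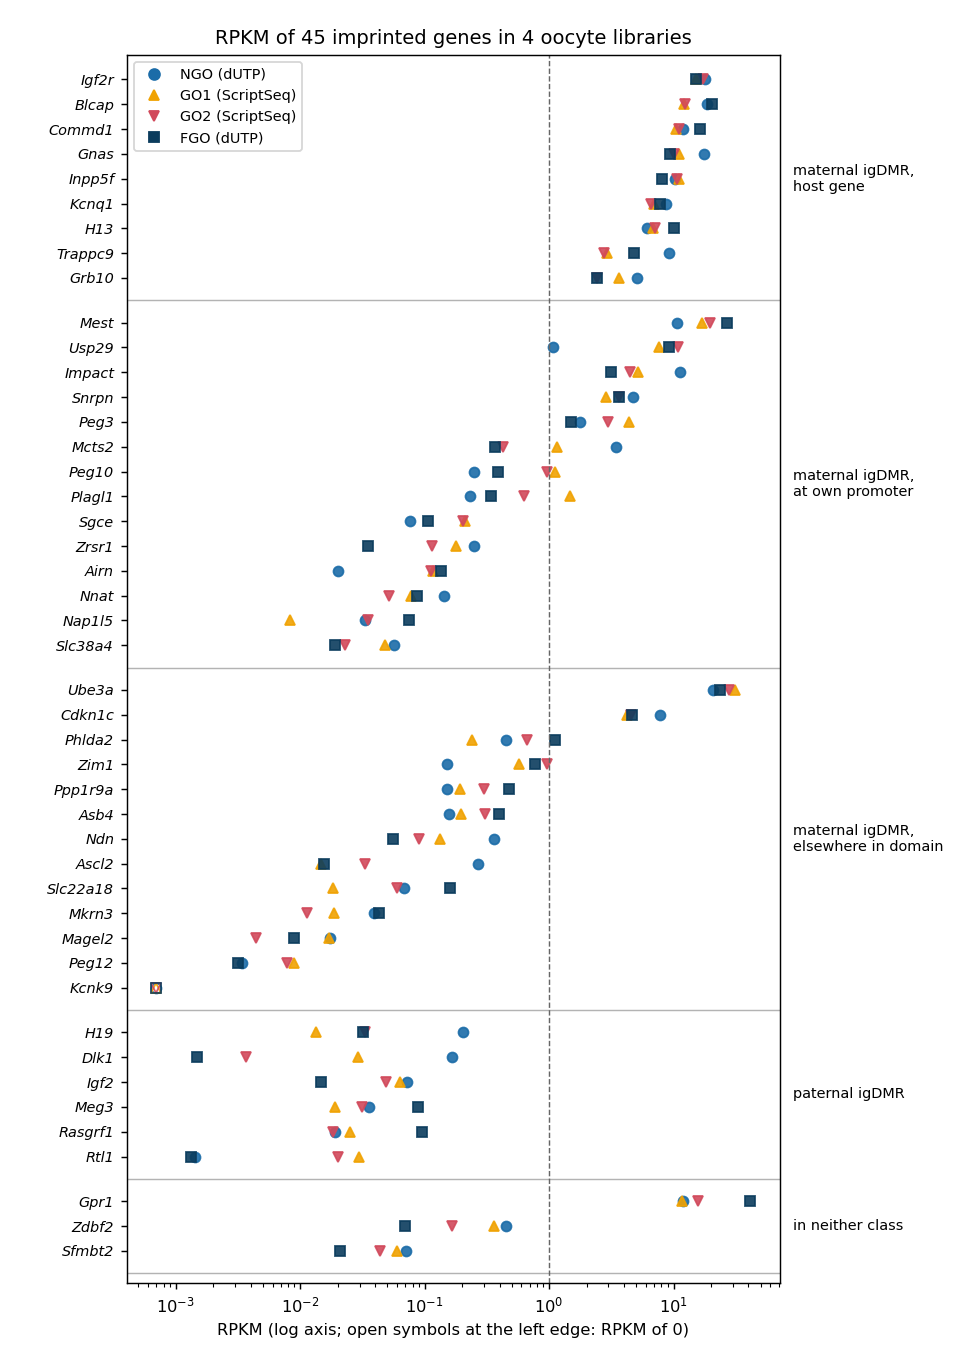
RPKM on a log axis of each of the 45 listed imprinted genes in the 4 libraries (1 symbol per library, open symbols for an RPKM of 0, dashed line at an RPKM of 1), grouped by class and by position relative to the igDMR. The 9 host genes lie to the right of the line in every library, and the 6 genes of the paternal class lie to its left in every library.

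The classes differed in level in each library. The median RPKM of the 36 genes of the maternal class was 0.408, 1.14, 0.811 and 0.625, while the 6 genes of the paternal class had medians of 0.0543, 0.0272, 0.0258 and 0.0232. The median of all genes was 0.153, 0.143, 0.166 and 0.173, between the 2 classes in every library. With 1 value per control region (the median of its genes), the medians were higher for the maternal class, at 4.78, 3.98, 2.98 and 2.44, and then highest in NGOs and not in GO1. With Zdbf2 and Gpr1 added to it, the paternal class had medians of 0.119, 0.0295, 0.0323 and 0.0509. Zdbf2 and Gpr1 were not tried in the maternal class. No gene of the paternal class reached an RPKM of 1 in any library, and the highest value of the class was 0.202 for H19 in NGOs. The ranges of the classes overlapped, because the maternal class runs from an RPKM of 0 to 31.5. Genes are not replicates of a class, and no test was made of this difference.

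Within the maternal class, groups of genes by assigned position relative to the igDMR differed in median level. This grouping was made after the values were seen and is not exclusive. The paper reports upstream start sites active in oocytes for Plagl1, Peg3, Peg10 and Impact, which are grouped here by their own promoter. It also reports oocyte transcripts that run through the igDMR of Slc38a4, a gene grouped in the same way. The rows of Mest and Snrpn, in this group too, span several RefSeq starts, so their bodies may also contain the igDMR. The difference in level therefore cannot be told apart from the choice of groups. The 9 host genes, whose body contains the igDMR, had an RPKM of at least 1 in all 4 libraries, with medians of 10.2, 10.4, 10.2 and 9.31. The 14 genes that have the igDMR at their own promoter had medians of 0.250, 1.14, 0.525 and 0.355. The 13 genes that lie elsewhere in an imprinted domain had medians of 0.152, 0.134, 0.0903 and 0.161, close to the medians of all genes except in GO2, where they were lower.

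**Figure D2:**
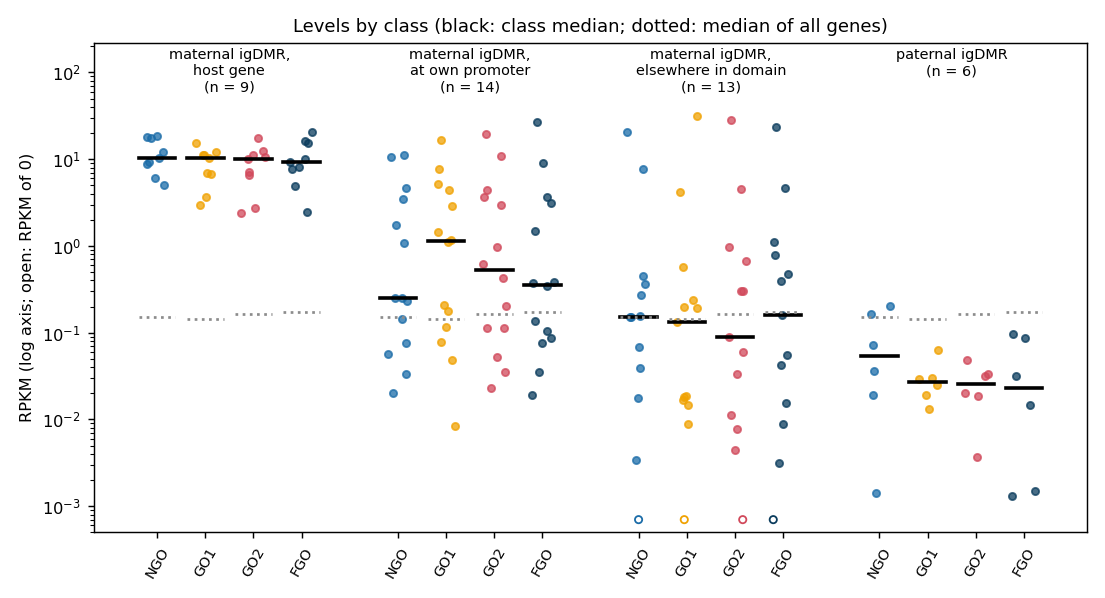
RPKM on a log axis of the imprinted genes by class and library (1 point per gene, placed with a small sideways shift, open points for an RPKM of 0), with the class median as a black line and the median of all genes as a dotted line. The medians of the host genes lie between 9.31 and 10.4, and those of the paternal class between 0.0232 and 0.0543, below the dotted lines.

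Most host genes, like most genes with an RPKM of at least 1 in all 4 libraries, varied less than 2-fold over the libraries. Igf2r (chromosome 17 from 12682406 to 12769664), the receptor that clears the growth factor IGF2, had an RPKM of 17.8, 15.2, 17.4 and 15.3. Inpp5f, an inositol phosphatase, had 10.2, 11.03, 10.6 and 8.13, and Kcnq1, a potassium channel subunit, had 8.70, 6.996, 6.65 and 7.80. The highest value was less than 2-fold over the lowest in 7 of the 9 host genes, with a median ratio of 1.64. Among all genes with an RPKM of at least 1 in all 4 libraries, this held for 56.3%, with a median ratio of 1.87. The widest host gene was Trappc9, a subunit of a vesicle trafficking complex, with 9.24, 2.94, 2.75 and 4.84, so that both ScriptSeq libraries lay below both dUTP libraries.

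Gnas and Grb10 had their highest values in NGOs. Gnas (chromosome 2 from 174284320 to 174346744), which encodes the stimulatory G protein alpha subunit and further transcripts of its locus, had an RPKM of 17.5, 11.03, 10.2 and 9.31, a log2 change of -0.86 from NGOs to FGOs (95% interval -0.89 to -0.83). Its row sums the exons of the whole locus, of which 22.0% of bases overlap other genes on the opposite strand, Nespas among them. Grb10, an adaptor that restrains insulin signalling, had 5.06, 3.67, 2.41 and 2.44, a log2 change of -0.999 (-1.07 to -0.93). H13, the signal peptide peptidase, with 6.12, 6.80, 7.09 and 10.02, and Commd1, a regulator of copper handling, with 12.01, 10.4, 11.1 and 16.4, were instead highest in FGOs, with log2 changes of 0.76 (0.72 to 0.81) and 0.50 (0.47 to 0.54). Blcap had 18.5, 12.03, 12.3 and 20.5, with both ScriptSeq libraries below both dUTP libraries. None of the 9 host genes passed the threshold of 4-fold in either pair.

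Genes with the igDMR at their own promoter spanned a wide range of levels. For 3 of them, and for Meg3 of the paternal class as a contrast, the sequence around a start is shown. The windows hold 250 bases before and 50 after a start in RefSeq (GRCm38.p6), printed 5′ to 3′ on the strand of the gene, with TGCCGC and its reverse complement GCGGCA in capitals. Those of Mest, Mcts2 and Nap1l5 are shown because the promoter is the part of these genes that the igDMR lies at or near. Meg3 was assigned a position away from the igDMR of its domain, so its window is not igDMR sequence by this grouping. Mest is on the plus strand at chr6:30737800-30738099, Mcts2 on the plus strand at chr2:152686898-152687197, Nap1l5 on the minus strand at chr6:58907077-58907376 and Meg3 on the plus strand at chr12:109540746-109541045.
Mest: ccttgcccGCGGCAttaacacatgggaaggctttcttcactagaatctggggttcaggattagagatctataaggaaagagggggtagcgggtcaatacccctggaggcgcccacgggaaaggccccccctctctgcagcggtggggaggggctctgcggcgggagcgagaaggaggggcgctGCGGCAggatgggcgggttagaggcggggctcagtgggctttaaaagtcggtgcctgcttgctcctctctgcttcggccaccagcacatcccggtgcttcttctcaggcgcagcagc
Mcts2: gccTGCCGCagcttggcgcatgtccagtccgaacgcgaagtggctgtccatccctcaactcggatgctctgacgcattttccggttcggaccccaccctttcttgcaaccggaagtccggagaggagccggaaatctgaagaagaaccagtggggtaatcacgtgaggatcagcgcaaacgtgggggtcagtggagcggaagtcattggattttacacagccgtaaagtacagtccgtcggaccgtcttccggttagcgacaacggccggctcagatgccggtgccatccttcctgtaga
Nap1l5: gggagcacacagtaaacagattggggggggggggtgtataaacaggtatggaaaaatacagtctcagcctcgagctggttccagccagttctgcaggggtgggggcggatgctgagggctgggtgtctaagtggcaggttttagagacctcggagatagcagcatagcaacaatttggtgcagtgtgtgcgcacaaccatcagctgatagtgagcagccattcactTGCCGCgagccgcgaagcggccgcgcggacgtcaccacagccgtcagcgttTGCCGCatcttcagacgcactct
Meg3: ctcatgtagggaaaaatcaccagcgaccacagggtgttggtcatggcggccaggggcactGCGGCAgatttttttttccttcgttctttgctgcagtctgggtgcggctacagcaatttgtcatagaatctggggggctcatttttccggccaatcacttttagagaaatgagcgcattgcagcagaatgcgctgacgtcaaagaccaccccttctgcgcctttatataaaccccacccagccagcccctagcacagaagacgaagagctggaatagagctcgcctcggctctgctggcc

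The windows of Mest and Nap1l5 hold 2 matches each, and those of Mcts2 and Meg3 hold 1 each. Windows were found for 36 of the 45 genes. Of their 57 windows, 13 hold the hexamer on either strand (22.8%), against 11.6% of all 32851 windows. Among windows with at least 13 CpGs, the lowest number in those shown, it is in 12 of 32 windows of imprinted genes (37.5%) and in 24.1% of all. By position in the maternal class the share is 38.9% of 18 windows at genes with the igDMR at their own promoter. It is 16.7% of 12 windows of host genes and 7.69% of 13 windows of the other genes. These are windows of 11, 7 and 11 genes, and 2 of the windows with a match overlap at Mest. No share by position was taken among windows with at least 13 CpGs. All 4 windows shown hold a match, but the genes shown were chosen after the values were seen and do not stand for their group. Airn, Peg3, Usp29, Slc38a4 and Zrsr1, also with the igDMR at their own promoter, have no match in any window. Where a gene has several windows the one with the most matches was taken, while Mcts2 and Nap1l5 have 1 window each. Windows of 1 gene can overlap. A match is a description of letters in these windows and was not tested for binding. The RPKM of these genes ran from 26.9 for Mest in FGOs to 0.00833 for Nap1l5 in GO1, so genes that share the hexamer did not share a level.

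Mest (chromosome 6 from 30723547 to 30748455), which encodes a protein of the hydrolase fold family, was the highest gene of this group in 3 of the 4 libraries, with an RPKM of 10.7, 16.8, 19.7 and 26.9. The log2 change was 1.39 (1.34 to 1.44) from NGOs to FGOs and 0.19 (0.16 to 0.23) from GO1 to GO2, neither past 4-fold. Of its exon bases, 22.9% overlap Copg2 on the opposite strand, and Copg2 had an RPKM of 16.3, 9.64, 10.4 and 12.4. The strand setting of the deposited values is not given in the sources used here, so reads of the 2 genes may not be separated. Snrpn, a core protein of the spliceosome, had 4.68, 2.85, 3.62 and 3.65, and 27.3% of its exon bases are shared with Snurf and predicted genes on the same strand. Impact, an inhibitor of the kinase GCN2, was highest in NGOs, with 11.2, 5.21, 4.45 and 3.14.

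The rows named Usp29 and Airn were those of this group that rose past 4-fold from NGOs to FGOs. The row of Usp29, a gene of the ubiquitin protease family, had an RPKM of 1.07, 7.70, 10.9 and 9.12, a log2 change of 3.13 (2.97 to 3.31) from NGOs to FGOs. Only NGOs stood low. This row spans 2610 bases of chromosome 7 far from the start of Usp29. All 2610 are exon bases of Usp29 in GENCODE, but 96.7% of them also overlap exons of Zim3 on the opposite strand. The strand setting is not given, so the value of the row may include reads of Zim3 and may not be that of Usp29 alone. Airn, the long non-coding RNA that silences Igf2r on the paternal allele in the embryo, had 8, 53, 97 and 58 counts. These are an RPKM of 0.0202, 0.117, 0.112 and 0.135, with a log2 change of 2.66 (1.72 to 4.08) from NGOs to FGOs. The level of Airn stayed below the median of all genes in every library.

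Mcts2 and Zrsr1 fell past 4-fold from NGOs to FGOs. Both are retrogenes, copies made by reverse transcription that sit inside an intron of their host. Mcts2 (chromosome 2 from 152687148 to 152687940) had an RPKM of 3.44, 1.16, 0.423 and 0.369, a log2 change of -3.13 (-3.72 to -2.66) from NGOs to FGOs and of -1.48 (-1.92 to -1.07) from GO1 to GO2. Zrsr1, a relative of the splicing factor U2AF, had 0.250, 0.177, 0.114 and 0.0354, a log2 change of -2.70 (-3.55 to -2.06) from NGOs to FGOs. The order of the 4 libraries was the same for both genes, from NGOs down to FGOs.

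Plagl1, Peg3 and Peg10 were highest in GO1. Plagl1 (also called Zac1), a zinc finger transcription factor, had an RPKM of 0.231, 1.46, 0.627 and 0.342, with a log2 change of -1.25 (-1.37 to -1.14) from GO1 to GO2. Peg3, a zinc finger protein, went from 1.76 in NGOs over 4.36 and 2.98 in the growing oocytes to 1.499 in FGOs. Peg10, a gene derived from a retrotransposon, had 0.250, 1.11, 0.968 and 0.387, so that both ScriptSeq libraries were at least 2-fold over both dUTP libraries. The same held for Rtl1 of the paternal class, and for 3.61% of the genes with at least 20 counts. Mkrn3, which encodes a RING finger protein, was the 1 gene of 43 in which both ScriptSeq libraries were at most 0.5 times both dUTP libraries, as for 5.7% of these genes, and it had 11, 6, 7 and 13 counts. The kit was not tested as a source of these patterns, since stage and protocol cannot be told apart.

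The other genes of this group were low. Nnat, a small membrane protein of neurons, had 29, 18, 23 and 19 counts, and Slc38a4, an amino acid transporter, had 25, 24, 22 and 9. Nap1l5, a retrogene related to nucleosome assembly proteins, had 7, 2, 16 and 17 counts, which is below the floor in GO1. Sgce, which encodes epsilon-sarcoglycan and shares its igDMR with Peg10, had an RPKM of 0.0762, 0.210, 0.204 and 0.106.

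Host and nested genes of the same igDMR were compared as pairs within each library. In 8 pairs with both genes listed, the gene placed first had the higher RPKM in 6 pairs in NGOs and in 7 pairs in GO1, GO2 and FGOs. Without the pair of the Usp29 row and Peg3 it was 6 of 7 pairs in every library. In the pairs Sgce and Peg10, Usp29 and Peg3, and Ube3a and Snrpn neither gene hosts the other. Which gene is placed first is a choice there, and the counts over all pairs depend on it. In the 5 pairs in which one gene lies inside or across the other (Igf2r and Airn, Blcap and Nnat, Commd1 and Zrsr1, H13 and Mcts2, Herc3 and Nap1l5), the host was higher in 5 of 5 pairs in every library. These 5 pairs were set apart after the values were seen. The smallest ratio among them was 1.78 (1.58 to 2.003) for H13 over Mcts2 in NGOs, and in the later libraries this ratio was 5.84 (4.87 to 7.08), 16.8 (13.5 to 21.1) and 27.2 (19.5 to 39.0).

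The ratio of Commd1 over Zrsr1 took the same order, with 48.1 (40.3 to 57.9), 58.6 (48.2 to 72.0), 97.3 (81.6 to 117) and 464 (297 to 770). The ratio of Igf2r over Airn was highest in NGOs, at 881 (447 to 2041), and lay between 113 and 155 in the other 3 libraries. Herc3 (a ubiquitin ligase) had an RPKM from 9.43 to 12.3, and its ratio to Nap1l5 of 1479 in GO1 rests on 2 counts of Nap1l5, with an interval from 409 to 12214. Sgce, which shares a promoter region with Peg10 in the opposite direction, was the lower gene of its pair in all 4 libraries, with ratios from 0.189 to 0.305. The ratio of the Usp29 row, which may not measure Usp29 alone, over Peg3 was 0.611 (0.541 to 0.688) in NGOs and 6.08 (5.76 to 6.43) in FGOs. Neither gene hosts the other, and without gene length the ratio was 0.120, 0.346, 0.713 and 1.19. Mcts2 lies inside H13 on the same strand, so reads of unspliced H13 RNA over it cannot be told apart from its own. Of the exon bases of Zrsr1, 9.17% lie on exons of Commd1 on the opposite strand.

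**Figure D3:**
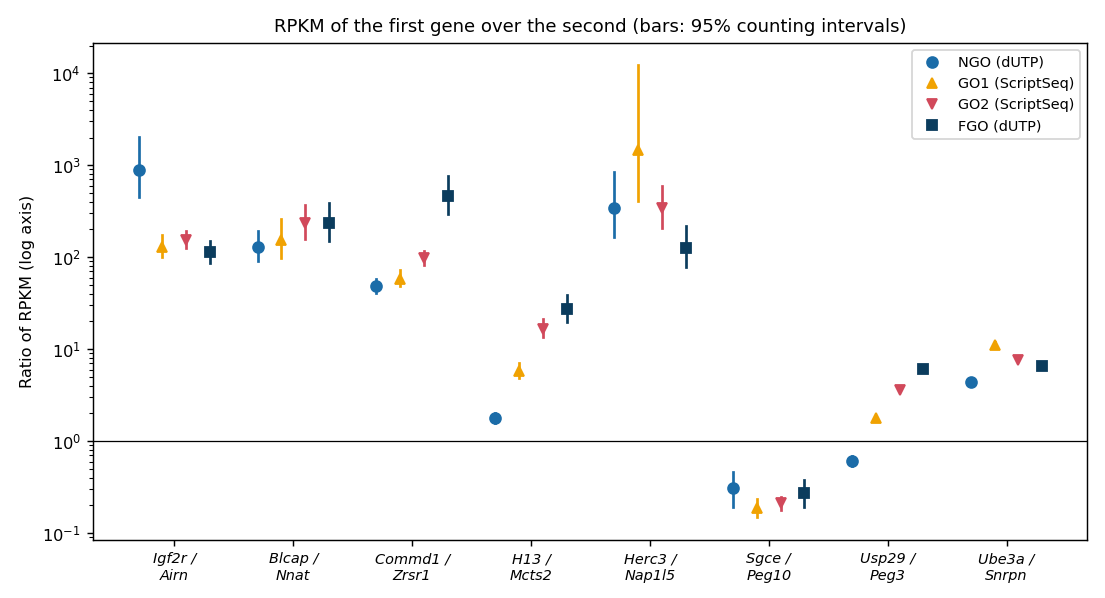
Ratio on a log axis of the RPKM of the first gene over that of the second in 8 pairs and 4 libraries, with 95% counting intervals as bars. The 5 pairs on the left lie above 1 in every library, Sgce over Peg10 lies below 1 in every library, and H13 over Mcts2 goes from 1.78 in NGOs to 27.2 in FGOs.

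Among the 13 genes elsewhere in the maternally controlled domains, Ube3a and Cdkn1c were the highest. Ube3a (chromosome 7 from 59228752 to 59306727), the ubiquitin ligase of the Snrpn domain, had an RPKM of 20.8, 31.5, 27.9 and 23.7. These are the highest values of the maternal class in NGOs, GO1 and GO2. Cdkn1c, the cell cycle inhibitor p57, had 7.76, 4.24, 4.56 and 4.62, and a predicted gene on the opposite strand overlaps 30.8% of its exon bases. The other genes of the Snrpn domain were low, and the RPKM of Ndn, Magel2, Mkrn3 and Peg12, of which Ndn and Magel2 encode MAGE proteins, did not exceed 0.361 in any library. Ndn had 0.361, 0.134, 0.0903 and 0.0557 and fell past 4-fold from NGOs to FGOs, with a log2 change of -2.54 (-3.72 to -1.71). Magel2 had 9, 10, 5 and 5 counts and Peg12 had 1, 3, 5 and 1, too few for a change to be computed.

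Genes of the Kcnq1ot1 domain did not share a course. Phlda2, which limits growth of the placenta, had an RPKM of 0.454, 0.240, 0.662 and 1.12, with log2 changes of 1.33 (0.80 to 1.93) from NGOs to FGOs and 1.41 (0.78 to 2.14) from GO1 to GO2. Slc22a18, a transporter, had 13, 4, 25 and 33 counts, with log2 changes of 1.22 (0.32 to 2.33) and 1.52 (0.15 to 3.66). Ascl2, a transcription factor of the trophoblast, had 48, 3, 13 and 3 counts and fell past 4-fold from NGOs to FGOs, with a log2 change of -3.67 (-6.39 to -2.43). NGOs stood apart for Ascl2, and the other 3 libraries were at an RPKM of at most 0.0334.

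Zim1 of the Peg3 domain and Ppp1r9a and Asb4 of the Peg10 domain had their lowest values in NGOs. Pon3 and Casd1, further genes of the Peg10 domain outside the list of 48, had their highest RPKM in NGOs, with 2.56, 1.67, 0.897 and 0.449 for Pon3 and 0.750, 0.406, 0.181 and 0.111 for Casd1. Zim1, a zinc finger gene, had an RPKM of 0.151, 0.576, 0.960 and 0.776, and rose past 4-fold from NGOs to FGOs, with a log2 change of 2.39 (2.01 to 2.83). Ppp1r9a (neurabin, an actin binding protein) had 0.152, 0.192, 0.302 and 0.474, and Asb4, a ubiquitin ligase adaptor, had 0.156, 0.197, 0.304 and 0.395, both in the order of the stages and short of 4-fold. Kcnk9, a potassium channel, was the 1 gene with no count in any library, which allows an RPKM of up to 0.0224, 0.0196, 0.0103 and 0.0207 over the 1209 GENCODE exon bases inside its row.

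The 6 genes of the paternal class were all low, and they did not all share a course. H19 (chromosome 7 from 142575529 to 142578143), a long non-coding RNA of the embryo, had 53, 4, 19 and 9 counts, or an RPKM of 0.202, 0.0133, 0.0332 and 0.0317. Igf2, the growth factor gene beside it, had 46, 46, 67 and 10 counts, or an RPKM of 0.0727, 0.0634, 0.0485 and 0.0146, and 62.8% of its exon bases are shared with other genes on the same strand. Dlk1 (chromosome 12 from 109452823 to 109463336), a membrane protein of the Notch ligand family, had 104, 21, 5 and 1 counts, or an RPKM of 0.166, 0.0293, 0.00366 and 0.00148. NGOs had the highest RPKM for all 3 genes. For Igf2 the intervals of NGOs (0.0532 to 0.0969) and GO1 (0.0464 to 0.0846) overlap. H19, Igf2 and Dlk1 fell past 4-fold from NGOs to FGOs, with log2 changes of -2.49 (-3.82 to -1.59), -2.15 (-3.41 to -1.26) and -5.76 (-12.08 to -4.25).

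Rasgrf1 and Meg3 had their highest values in FGOs. Rasgrf1, an exchange factor for RAS, had 10, 15, 21 and 54 counts and rose past 4-fold from NGOs to FGOs, with a log2 change of 2.26 (1.38 to 3.51). Meg3, a long non-coding RNA, had 72, 44, 137 and 190 counts, with a log2 change of 1.33 (0.94 to 1.75). Rtl1, derived from a retrotransposon, had 1 count in each dUTP library and 24 and 31 counts in GO1 and GO2. The 3 values of Rtl1 and Dlk1 at 1 count are below the floor of 3 counts.

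Of the genes in neither class, Gpr1 and Zdbf2 had their highest values at opposite ends of growth. Gpr1 (chromosome 1 from 63182691 to 63214543), a receptor for chemerin, had an RPKM of 12.0, 11.7, 15.8 and 41.4, which is the highest value of any imprinted gene in FGOs. Its log2 change from NGOs to FGOs was 1.84 (1.78 to 1.91), short of 4-fold. Zdbf2 (chromosome 1 from 63273265 to 63314576), a zinc finger gene of the same domain, had 0.449, 0.363, 0.165 and 0.0700 and fell past 4-fold, with a log2 change of -2.62 (-2.94 to -2.33). Sfmbt2, a relative of the polycomb proteins, had 0.0713, 0.0596, 0.0436 and 0.0211.

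Counted over the list, the changes from NGOs to FGOs were mixed. Of 41 imprinted genes with at least 20 counts in the 2 libraries, 4 rose past 4-fold (Usp29, Airn, Zim1 and Rasgrf1), where 8.57% of all 15270 tested genes did. In the other direction 8 fell past 4-fold (Dlk1, Ascl2, Mcts2, Zrsr1, Zdbf2, Ndn, H19 and Igf2), where 5.55% of all tested genes did. At 2-fold, 12 were higher in FGOs (17.7% of all tested genes) and 11 were lower (16.8%). The median log2 change was 0.17 for the maternal class (33 genes) and -2.15 for the paternal class (5 genes), beside -0.01 for all tested genes. With 1 value for each control region, the median of the maternal class was -0.22, and without the filter on low counts it was -0.02, so its sign depends on these choices. Without the filter the median of the paternal class was -1.09. With a prior count of 5 in place of 1, Igf2 (-1.81) and Rasgrf1 (1.93) were short of 4-fold. With the scaling by library totals, the median of all tested genes shifted to -0.12.

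From GO1 to GO2 few imprinted genes passed a threshold. None of 39 tested genes rose past 4-fold, where 1.5% of all 15748 tested genes did, and 1 fell (Dlk1), where 0.254% did. The log2 change of Dlk1 was -2.73 (-4.80 to -1.59), from 21 to 5 counts in libraries of which GO2 is the deeper, and it was -1.999 with a prior count of 5. At 2-fold, 3 were higher in GO2 (H19, Slc22a18 and Phlda2, 6.87% of all tested genes) and 5 were lower (Dlk1, Mcts2, Plagl1, Zdbf2 and Slc38a4, 2.81%). The median log2 change was -0.09 for the maternal class (30 genes) and -0.43 for the paternal class (6 genes), beside 0.02 for all tested genes.

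**Figure D4:**
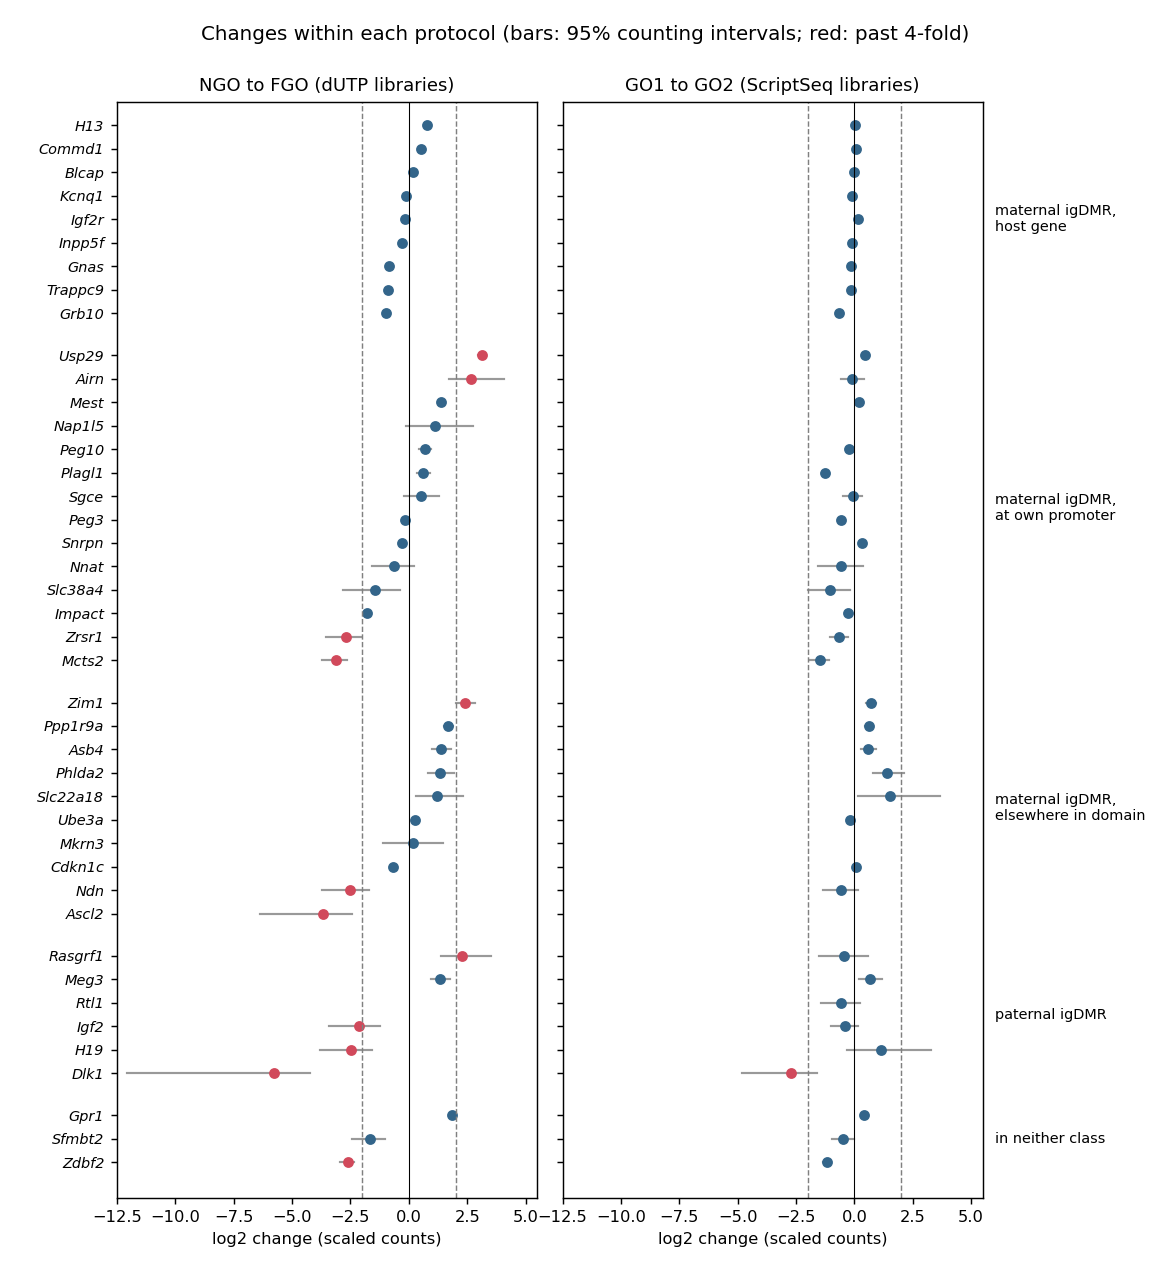
Log2 changes of the tested imprinted genes from NGOs to FGOs (left) and from GO1 to GO2 (right), with 95% counting intervals as bars, dashed lines at 4-fold and genes past 4-fold in red. On the left 12 genes lie past 4-fold, 4 upwards and 8 downwards, and on the right Dlk1 alone does.

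The 8 genes that fell from NGOs to FGOs stand beside stroma and theca markers of which most, but not all, moved the same way. Col1a1, a collagen of stromal cells, had an RPKM of 2.24 in NGOs and at most 0.0191 in the other libraries. Of the 6 tested stroma and theca markers 4 fell past 4-fold, while Pdgfra had a log2 change of -0.27 and Star of 0.34. H19, Dlk1, Igf2 and Ndn are also expressed in mesenchymal cells, and the part of such cells in the values of NGOs was not tested. With GO1 in place of NGOs, a comparison across protocols added after the values were seen, Zdbf2, Zrsr1, Igf2 and Dlk1 were also more than 4-fold lower in FGOs, 4 of the 6 that could be tested, where 3.37% of all tested genes were. Their log2 changes were -2.50, -2.40, -2.14 and -3.50, while those of Mcts2 and Ndn were -1.76 and -1.32, and H19 and Ascl2 had too few counts. The falling genes and the rising rows had been picked with this same FGO library. The comparison is therefore not independent of the choice, and the shares of all tested genes are not a like measure for it. For the 4 rows that rose from NGOs, the same comparison gave 0 of 4 past 4-fold, where 5.76% of all tested genes were higher, with log2 changes of 0.11 for Usp29, 0.08 for Airn, 0.29 for Zim1 and 1.73 for Rasgrf1. Usp29, Airn and Zim1 had their lowest RPKM in NGOs. The 8 granulosa cell markers had a median log2 change of 1.25 from NGOs to FGOs, from -1.35 for Foxl2 to 3.60 for Cyp19a1. Of them Cyp19a1 and Hsd17b1 (2.28) rose past 4-fold and none fell past it. All 8 had at least 3 counts in both libraries, and their part in these 4 rises was not tested.

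**Figure D5:**
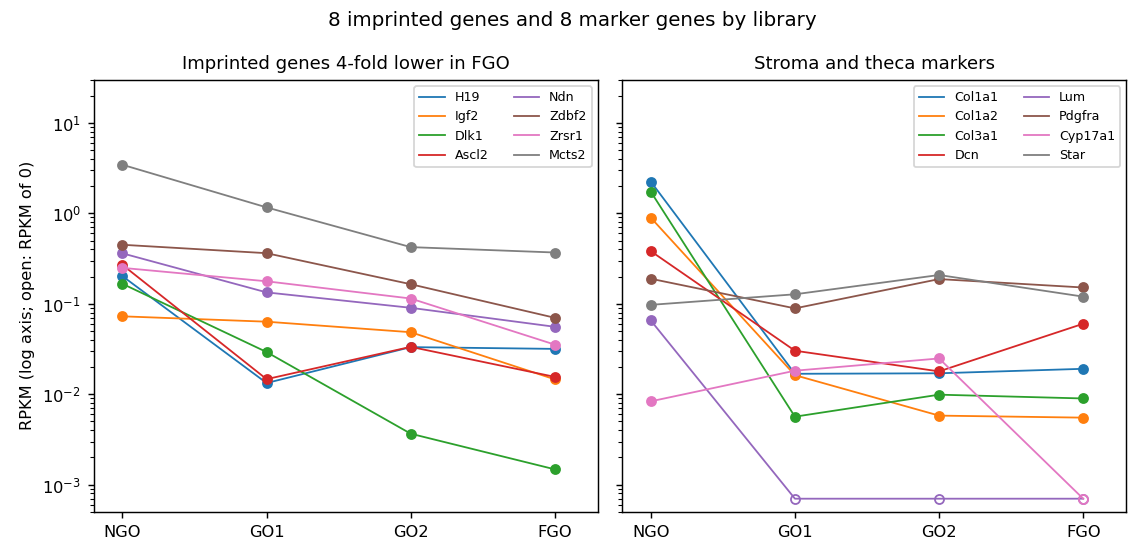
RPKM on a log axis by library of the 8 imprinted genes that fell past 4-fold from NGOs to FGOs (left) and of the 8 stroma and theca markers (right), with lines joining the values of a gene across both protocols and open points for an RPKM of 0. H19 and Ascl2 lie lower in GO1 than in NGOs, as Col1a1, Col1a2 and Col3a1 do, and Dlk1, Igf2, Ndn, Mcts2, Zdbf2 and Zrsr1 lie lower in each library than in the one before.

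Further genes, most of them of the same domains, and the factors that set or keep imprints were read from lists. Of the 38 further genes 33 are listed, and 12, 7, 7 and 9 of them had an RPKM of at least 1 in NGOs, GO1, GO2 and FGOs. From NGOs to FGOs, 1 of 23 tested rose past 4-fold (Atp10a, a lipid flippase, with a log2 change of 2.72), against 8.57% of all tested genes. Past 4-fold lower were 7, against 5.55%, namely Jade1 (-4.89), Cd81 (-2.96), Gab1 (-2.76), Casd1 (-2.68), Dcn (-2.53), Pon3 (-2.45) and Smoc1 (-2.09). Jade1 (chromosome 3) and Gab1 (chromosome 8) lie on chromosomes without a listed imprinted gene. Smoc1 and Dcn lie far from the imprinted genes of their chromosomes, and Dcn is also a stroma and theca marker. From GO1 to GO2 none of the 23 passed 4-fold, against 1.5% higher and 0.254% lower of all tested genes. All 7 imprint factors had an RPKM of at least 1 in all 4 libraries. Zfp57 itself had 116, 160, 159 and 154, and Dnmt3l, the cofactor of the de novo methyltransferases, had 3.25, 8.48, 14.5 and 28.3, with a log2 change of 3.17 from NGOs to FGOs, the 1 factor of 7 past 4-fold.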

How the data were processed

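Oocytes were pooled by stage and sequenced as total RNA depleted of ribosomal RNA, 1 library per stage. Per the submitters' processing notes and the paper's methods, the authors trimmed reads with Trim Galore (version 0.2.8) and mapped them to GRCm38 with TopHat2 (version 2.0.9). The authors deposited RPKM values on a linear scale for 25587 genes. The program, annotation and strand setting behind them are not given in the sources used here.

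Counts were recovered as RPKM times exon length times library total. The totals (110595207 for the NGO library, 126796745 for GO1, 241385712 for GO2 and 119629250 for FGO) were fitted on genes with 1 GENCODE exon (release M21 on GRCm38), of whose values above 0 at least 99.37% came out whole, within a tolerance of 0.0001 counts that widens with the count. For the other genes the length that gave whole counts in all libraries was taken from the GENCODE exon union (9028 genes), a GENCODE transcript (1028 genes) or the smallest length that did so (10118 genes). A smallest length that is not the true one lowers the counts of that gene by 1 common factor. The tolerance and a limit of the length to the span of the gene were adjusted after looser settings had given lengths that fit by chance, so these counts rest on choices made with the data in view. The recovery and the log2 changes were tested on simulated data.

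Log2 changes were taken from counts after scaling libraries by trimmed log ratios (30% of ratios and 5% of expression trimmed), with a prior count of 1, at least 20 counts in the pair and a threshold of 4-fold. Intervals are 95% intervals that take each recovered count as independent (Poisson for counts, Clopper-Pearson for ratios). The totals exceed the number of read pairs, so fragments were on average counted more than once and the intervals are too narrow. Mates or spliced parts of 1 fragment may have been counted separately, and the floor of 3 counts can then be 1 fragment. No count model was run, as no group has a second library. Every listed imprinted gene was named, by rule. Members, classes and lists were chosen with earlier results of these data known. The position of genes relative to the igDMR, the 5 host pairs, the comparison of both kits, the promoters shown and the genes named from the other lists were chosen after the values were seen. Promoter windows came from RefSeq. Python 3.11.15, numpy 2.4.6, pandas 2.3.3, scipy 1.17.1 and matplotlib 3.10.9 were used.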

Additional observations from a re-analysis of the deposited data

How the results depend on the processing

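With 1 library per stage, no replicate could be left out. No paired analysis was possible because no group has a second library. With a threshold of 2-fold in place of 4-fold, 12 imprinted genes were called higher in FGOs than in NGOs, 3 higher in GO2 than in GO1 and 5 lower in GO2. With a prior count of 5, 0 were called lower in GO2, since Dlk1 then had a log2 change of -1.999, and Igf2 (-1.81) and Rasgrf1 (1.93) also lost their call from NGOs to FGOs. With GO1 in place of NGOs, added after the values were seen, 3 were called higher and 6 lower in FGOs. The cause of these differences was not tested. The other counts stayed within 1.5 times under a minimum of 10 counts, thinning to the smallest library, an RPKM threshold of 0.5, another total, other scalings and no filter. The class medians stayed inside their intervals from order statistics, but these are wide. For the paternal class, of 5 or 6 genes, they run from the lowest to the highest gene, so this check could hardly fail there. With 1 value per control region the median RPKM of the maternal class was 4.78, 3.98, 2.98 and 2.44 in place of 0.408, 1.14, 0.811 and 0.625, and with Zdbf2 and Gpr1 the paternal median was 0.119 in NGOs and 0.0509 in FGOs in place of 0.0543 and 0.0232. The median change of the maternal class from NGOs to FGOs turned to -0.02 without the filter and to -0.22 with 1 value per control region, and that of the paternal class was -1.09 without the filter. Ratios of counts without gene length gave the gene placed first as higher in 6, 6, 6 and 7 of 8 pairs.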
